A study of Solanum lycopersicum with 6 samples.

Results

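Chromosome 6 of tomato (Solanum lycopersicum) carried 6693 of the 80696 accessible regions that the authors called by ATAC-seq in inflorescences of anantha-e1546 plants of the M82 background. The regions were chosen by their chromosome name. The division used below was chosen by peak counts in these same data: an arm at each end, a sparse interior, and within it an island of peaks whose midpoints lie between 21 and 24 Mb. Counts and spacing by division are therefore described and not tested. Of the 6693 peaks, 360 (5.38%) were in the island, 517 (7.72%) in the remainder of the interior, 972 (14.5%) in the first arm and 4844 (72.4%) in the last arm.

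Genotype and tissue did not vary: all 6 biological replicates were anantha-e1546 inflorescences from greenhouse plants under long days (light for 16 h, dark for 8 h), each from 1 g of fresh tissue, with no wild-type plants among the samples analysed here. ANANTHA encodes an F-box protein needed for flowers to form, and mutant inflorescences go on making meristems. The labels describe the tissue as enriched in meristems, and no marker of meristems could be checked in a peak list without genes. An ATAC-seq peak is a stretch of DNA that the Tn5 transposase cut more often than its surroundings. The peaks come as 1 list for all replicates, so no value has a replicate error, sequencing depth is unknown, and peaks of 1 list are not replicates of one another. For these reasons no test was made on width, strength or spacing. Intervals below are exact 95% intervals (Poisson for densities, Clopper-Pearson for shares) that cover counting error only and treat neighbouring peaks as independent. The list names no genes, and the gene models used here belong to another tomato assembly, so positions are given on build SL4.0 without gene, exon, intron or promoter.

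In tomato, genes are packed toward the ends of the chromosomes in euchromatin, and a long block of repeat-rich heterochromatin surrounds each centromere. Open chromatin in plants lies largely at promoters and at other regulatory DNA near genes, so peak maps usually follow the euchromatic arms. Which of the regions below are heterochromatin was not measured here.

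The chromosome had a short peak-rich arm, a sparse interior of 25 Mb with the dense island near its far end, and a long peak-rich arm. The island held 120 peaks per Mb (107.9 to 133.1). The remainder of the interior held 23.5 peaks per Mb (21.5 to 25.6), the first arm 243 (228.0 to 258.8) and the last arm 265.4 (258.0 to 273.0). Peaks covered 11.95% of the sequence in the island, against 2.12% in the remainder of the interior and 25.1% in each arm. The island was thus intermediate, at 5.11 times the density of the interior around it and 0.459 times that of the arms.

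**Figure D1:**
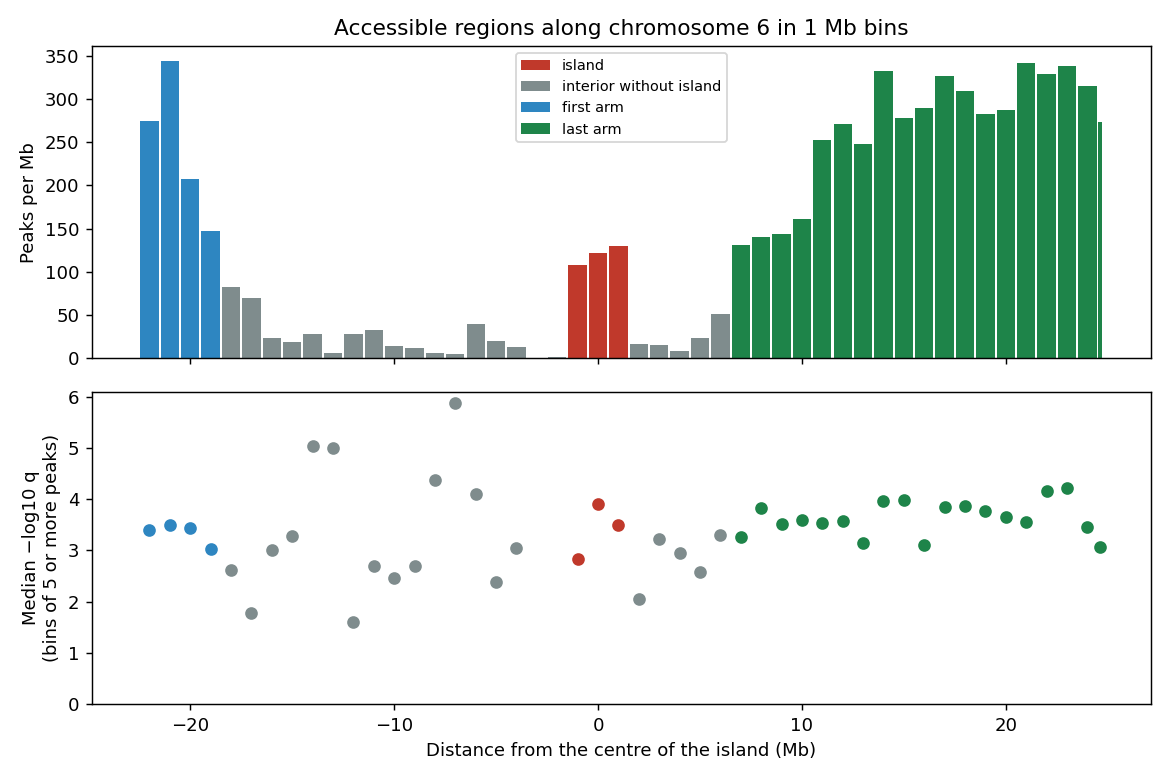
Peaks per Mb (upper panel) and the median −log10 q of the peaks (lower panel, bins of 5 or more peaks) in 1 Mb bins of chromosome 6, plotted by distance from the centre of the island in Mb; the last bin is shorter and is scaled to 1 Mb. The 3 island bins hold 108, 122 and 130 peaks and stand in an interior whose other bins hold from 0 to 83.

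The island had nearly empty sequence on its left and sparse sequence on its right. Its 3 bins of 1 Mb held 108, 122 and 130 peaks. The flanking 3 Mb held 14 peaks on the left and 41 on the right, or 4.67 peaks per Mb (2.55 to 7.83) and 13.7 (9.81 to 18.5). Against both flanks together, with 55 peaks in 6 Mb, the island was 13.1 times as dense. The ratio was 25.7 against the left flank and 8.78 against the right. The 1 Mb bins of the right flank held 17, 15 and 9 peaks, near the median of 18 in the interior bins outside the island. Of the left flank, 0.259% was covered by peaks, and of the right flank 1.24%.

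Near the left edge lay the longest stretch without a peak on the chromosome, 1.72 Mb from 18888404 to 20611828. The longest such stretch of each other chromosome measured from 0.987 to 2.24 Mb. The last peak before the island, at 20611829 to 20612564, was weak, with a −log10 q of 1.35 and a score of 287. A further 422841 bp without a peak followed it. The first island peak, at 21035406 to 21035687, had a width of 282 bp, a −log10 q of 3.72 and a score at the cap of 1000. The right edge was crossed over a shorter distance. The last island peak, at 23978481 to 23978938, had a −log10 q of 2.70, and the first peak beyond it, at 24087964 to 24089002, one of 4.07. The gap between these was 109025 bp.

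Counts inside and outside each limit show where the dense sequence begins. Within 500 kb of the left limit there were 57 peaks inside and 1 outside, and within 500 kb of the right limit 65 inside and 7 outside. In the first 200 kb inside the left limit there were 6 peaks, and in the first 200 kb inside the right limit 26. The dense sequence therefore began inside the left limit of the rule, in the bin of 100 kb that starts at 21200001 and holds 22 peaks.

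The island was not evenly filled. Its 30 bins of 100 kb held from 2 to 23 peaks with a median of 12.5, and 19 of them held 10 or more. The fullest was that from 22500001 to 22600000. Of the 30 bins, 7 held 4 peaks or fewer, and none was empty. The longest stretches without a peak inside the island were 114.4 kb, from 22676627 to 22790999, and 109.9 kb, from 21577679 to 21687608. These compare with 13 gaps over 100 kb in the flanks and 57 in the interior outside the island.

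**Figure D2:**
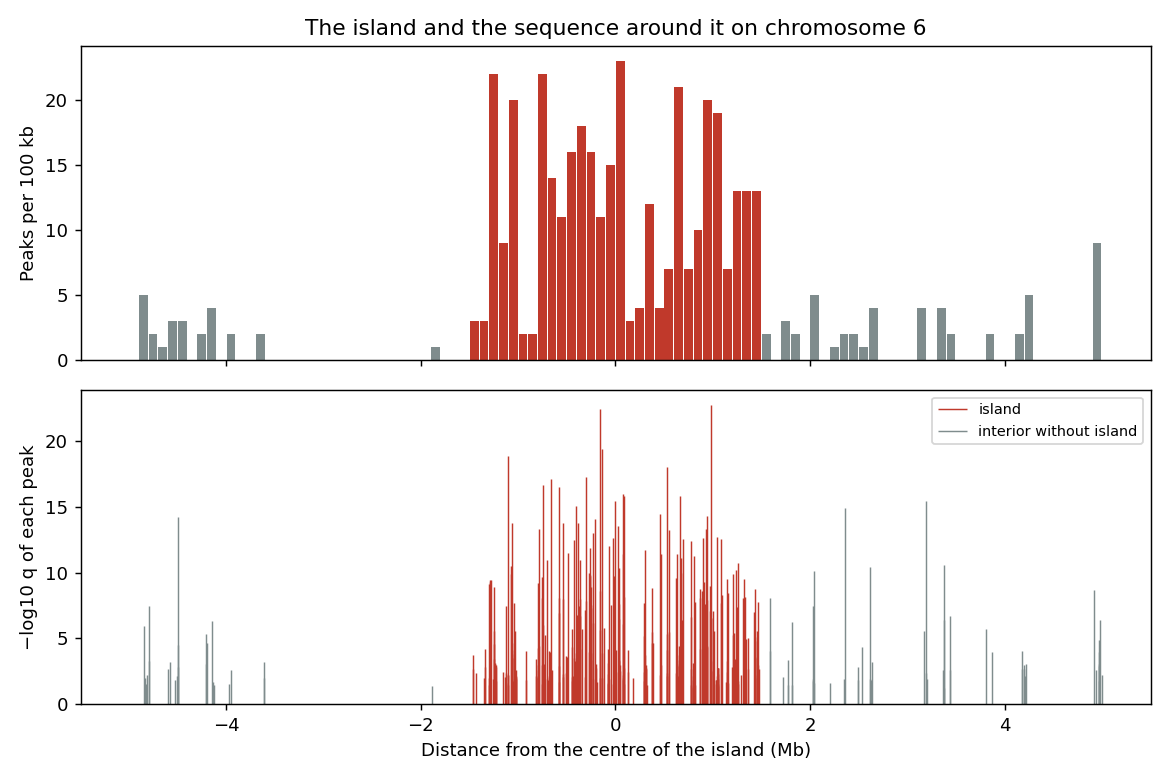
Peaks per 100 kb (upper panel) and the −log10 q of each peak (lower panel, 1 line per peak) within 5 Mb of the centre of the island, by distance from that centre in Mb. Island bins hold between 2 and 23 peaks, and the stretch of 1.72 Mb without a peak lies to the left of the island.

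Peaks of the island were about as wide as those of the arms and of the remainder of the interior. The few peaks of its left flank were narrower by median, and those of its right flank were not set apart from the remainder of the interior. The median width was 691.5 bp in the island (quartiles 433.5 and 1138 bp) and 684 bp in the arms together (438.8 and 1149 bp). The remainder of the interior had a median of 675 bp, with quartiles of 447 and 1028 bp. Within that remainder, the 55 peaks of the flanks had a median of 580 bp (438.5 and 955 bp). By side, the median was 560 bp for the 14 peaks on the left and 676 bp for the 41 on the right. Of those 55 peaks, 2 measured 2000 bp or more (3.64%, 0.443 to 12.5%). The upper end differed more than the middle. Peaks of 2000 bp or more made up 10.8% of the island (39 of 360, 7.82 to 14.5%), 6.58% of the remainder of the interior (34 of 517, 4.60 to 9.07%), 10.5% of the first arm (8.64 to 12.6%) and 8.84% of the last arm (8.05 to 9.67%).

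Peak strength was deposited in 2 forms, the −log10 q and a score that stops at 1000. The median −log10 q was 3.30 in the island (quartiles 2.10 and 7.58), close to the 3.33 of the first arm (2.19 and 6.68) and below the 3.69 of the last arm (2.31 and 6.93). It was 2.59 in the remainder of the interior (1.86 and 5.44), and 2.85 in the flanks (1.93 and 5.47). The share at the score cap followed the same order in the island, the arms and the remainder of the interior. It was 58.6% in the island (53.3 to 63.8%) and 49.5% in the remainder of the interior (45.1 to 53.9%). The first arm had 59.1% (55.9 to 62.2%) and the last arm 63.9% (62.6 to 65.3%). In the flanks, 27 of 55 peaks were at the cap (49.1%, 35.4 to 62.9%).

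The share of weak peaks in the island lay between that of the arms and that of the interior around it. A q above 0.01 was carried by 21.1% of its peaks (17.0 to 25.7%), against 32.5% in the remainder of the interior (28.5 to 36.7%) and 16.7% in the arms (15.7 to 17.7%). The first arm, with 19.5% (17.1 to 22.2%), was nearer to the island than the last arm, with 16.1% (15.1 to 17.2%). A −log10 q of 10 or more was carried by 47 island peaks, or 13.1% (9.75 to 17.0%). The corresponding share was 10.1% in the remainder of the interior (7.60 to 13.0%) and 11.8% in the arms (10.98 to 12.6%). A limit of 0.01 on q cuts the values compared and so draws the divisions together. With it, the median −log10 q was 4.30 in the island, 4.06 in the remainder of the interior, 4.29 in the first arm and 4.43 in the last arm. The share at the cap among these was 73.9% in the island, 73.1% in the remainder of the interior, 73.3% in the first arm and 76.2% in the last arm.

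**Figure D3:**
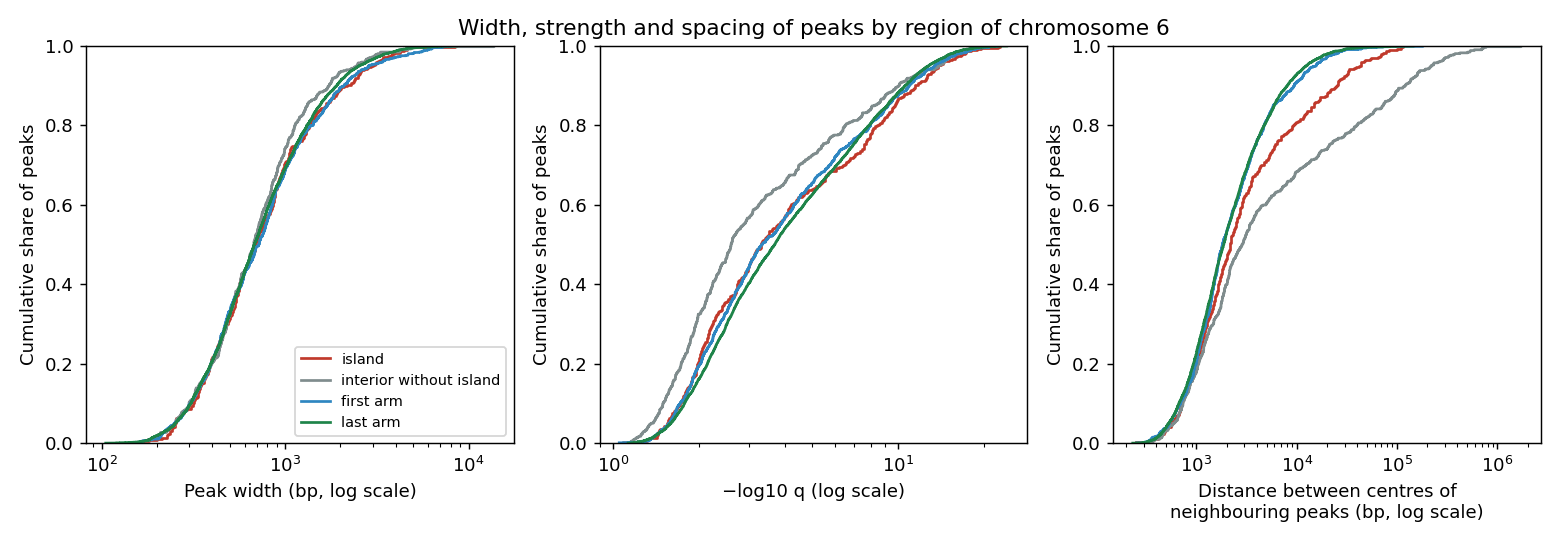
Cumulative shares of peaks by width in bp, by −log10 q and by distance to the next peak in bp, each on a log axis, for the island (360 peaks), the interior without it (517), the first arm (972) and the last arm (4844). The width curves nearly coincide, the interior curve of −log10 q lies to the left of the others, and the spacing curves separate at large distances.

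Spacing separated the divisions more than width or strength, as follows from their densities. From one peak centre to the next the median distance was 2184 bp in the island, against 10988 bp in its flanks, 2848 bp in the remainder of the interior, 1820 bp in the first arm and 1875 bp in the last arm. The upper quartile was 6010 bp in the island, 20835 bp in the remainder of the interior and 3873 bp in the arms. Another peak centre lay within 2 kb of 70.3% of island peaks (65.3 to 74.95%), 62.1% of those in the remainder of the interior (57.8 to 66.3%) and 75.9% of those in the arms (74.8 to 77.0%). Gaps of 100 bp or less made up 22.8% of the gaps in the island (18.6 to 27.5%), 17.5% in the remainder of the interior (14.3 to 21.04%) and 21.8% in the arms (20.8 to 22.9%).

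Joining peaks over gaps of up to 2 kb gave 135 groups in the island, or 45 per Mb, with a mean of 2.67 peaks per group. The remainder of the interior had 244 groups, or 11.1 per Mb, with 2.12 peaks each, and the arms had 1818, or 81.7 per Mb, with 3.20 peaks each. A group in the island was thus of intermediate size. Its median length was 2126 bp, against 1242 bp in the remainder of the interior and 2330 bp in the arms. Groups of 1 peak made up 35.6% in the island, 51.2% in the remainder of the interior and 35.1% in the arms. The strongest peak of a group had a median −log10 q of 7.57 in the island, 4.03 in the remainder of the interior and 6.62 in the arms. Groups of 5 or more peaks held 34.2% of island peaks, 24.6% of those in the remainder of the interior and 51.1% of those in the arms. The inner 4 Mb of the last arm, from 29000001 to 33000000, was nearer to the island in density, with 144 peaks per Mb. Groups there had a mean of 2.55 peaks and a median length of 2093.5 bp. Groups of 1 peak made up 39.4%, and groups of 5 or more held 32.1% of peaks. Another peak centre lay within 2 kb of 68.9% of peaks there. The island group with most peaks ran from 22528046 to 22545133 and had 12, with a highest −log10 q of 13.5.

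The island was also set beside sequence of like density on the other 11 chromosomes, a comparison chosen after the values were seen. There were 40 bins of 1 Mb with 100 to 150 peaks, holding 4950 peaks. Over these bins the median width of a bin ran from 597 to 830.5 bp with a median of 709.5 bp, its median −log10 q from 2.70 to 4.40 with a median of 3.45, and its share at the cap from 47.6% to 70.6% with a median of 59.5%. The 3 island bins, in order along the chromosome, had median widths of 623.5, 715 and 714.5 bp, a median −log10 q of 2.83, 3.91 and 3.49, and 50%, 64.8% and 60% of peaks at the cap. The share of peaks with another within 2 kb was 75.9%, 73.8% and 62.3% in the island bins, and from 61.2% to 83.6% in the 40 bins. Every one of these island values lay inside the range of the 40 bins, which is wide and so says little about likeness. The first island bin was below the lower quartile in width (659.1 bp), −log10 q (3.14) and share at the cap (55.9%). The second was above the upper quartile in −log10 q (3.70) and share at the cap (63.4%). The third was below the lower quartile in the share with a neighbour (68.7%).

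The strongest peaks of the island reached a −log10 q close to the highest of the first arm. The strongest lay at 23481319 to 23484937, with a −log10 q of 22.7 over 3619 bp. The next was at 22343074 to 22344991, with 22.4 over 1918 bp, and a further one followed at 22360815 to 22363654, with 19.4 over 2840 bp. These last 2 lie close together near the middle of the island. Outside the island, the strongest peaks of the interior were that at 16832791 to 16835263 (20.7), one at 8206129 to 8210346 (20.7) and one at 16243643 to 16244613 (18.2). The first arm reached 22.3 with a peak at 1808856 to 1810625, then 21.9 with one at 3235880 to 3241258 and 20.9 with one at 194646 to 196459. The strongest peak of the whole chromosome was in the last arm, at 35864401 to 35870932, with a −log10 q of 24.1 over 6532 bp. It was followed there by peaks at 29953446 to 29956660 (22.8), which is within 1 Mb of the interior, and at 37211326 to 37215424 (22.5).

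The widest peak of the island, at 23164355 to 23172776, measured 8422 bp and had a −log10 q of 15.8. Next in width were 4712 bp at 21920151 to 21924862, with a −log10 q of 16.5, and 4632 bp at 22572033 to 22576664, with 6.06. The widest peak of chromosome 6 lay in the interior outside the island, at 8649045 to 8662833. It measured 13789 bp with a −log10 q of 9.04, and no peak followed it for 84704 bp. The widest of the first arm was 8077 bp at 208465 to 216541, and that of the last arm 8684 bp at 41898620 to 41907303, with −log10 q values of 13.4 and 12.9. Width and −log10 q rose together over peaks, with a Spearman's rho of 0.57 in the island (n = 360), 0.42 in the remainder of the interior (n = 517) and 0.57 in the arms (n = 5816). The points share 1 list, so these values are given as a description.

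Both arms had a similar density, cut as they are by one rule on counts, and each thinned toward the interior. The 4 bins of the first arm held 274, 344, 207 and 147 peaks in order from the chromosome end, and the next 2 bins, already in the interior, held 83 and 70. The last arm began with 131, 140, 144 and 161 peaks in its inner 4 Mb, or 144 per Mb (132.5 to 156.3). From 33000001 onward it held 299.5 per Mb (290.6 to 308.6) and its bin from 33000001 to 34000000 held 253 peaks. Its fullest bin, from 43000001 to 44000000, held 341. The inner 4 Mb had a median width of 748 bp against 668.5 bp in the rest of that arm, and 12.3% of peaks of 2000 bp or more (9.75 to 15.3%) against 8.36% (7.55 to 9.24%). Its median −log10 q was 3.58 against 3.70.

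Between the arms, the first had a median width of 717.5 bp and the last 677.5 bp. The share at the cap was 59.1% in the first arm and 63.9% in the last, and a −log10 q of 10 or more was carried by 12.2% of peaks in the first arm (10.2 to 14.5%) and 11.7% in the last (10.8 to 12.6%). A q above 0.01 was carried by 19.5% of peaks in the first arm (17.1 to 22.2%) and by 16.1% in the last (15.1 to 17.2%). The share with another peak within 2 kb was 75.8% in the first arm and 75.9% in the last. None of these differences between the arms was tested.

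A run of peaks with gaps of at most 500 bp reached 25 kb at 1 place on the chromosome. It lay in the last arm from 44923901 to 44954125, where 19 peaks covered 89.5% of 30225 bp. Its peaks measured from 277 to 6430 bp with a median of 894 bp, 14 of the 19 were at the score cap, and their −log10 q ran from 1.80 to 12.6. The longest such run of the island was 11261 bp, from 23164355 to 23175615, made of 2 peaks. Joined over 2 kb, the group with most peaks on the chromosome held 48 and was also in the last arm, where the longest group spanned 76165 bp.

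The sparse interior was uneven apart from the island. Its 22 other bins held from 0 to 83 peaks with a median of 18, and the empty bin ran from 19000001 to 20000000. After the stretch beside the island, the longest without a peak were 769.9 kb, from 15239262 to 16009139, and 730.4 kb, from 12626280 to 13356655. A distance of over 20 kb to the nearest other peak centre was found for 39 peaks of the interior outside the island (7.54%), 5 of the island (1.39%) and 6 of the arms (0.103%).

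In 2 tracts of the interior, many peaks in a row had scores below the cap, a pattern singled out after the values were seen. The compact one ran from 5006808 to 5083906, where 36 peaks in a row covered 41.6% of 77.1 kb. Their scores ran from 250 to 828 with a median of 429, and their −log10 q from 1.15 to 2.30 with a median of 1.57. The median width of these peaks was 834.5 bp, above the 675 bp of all interior peaks outside the island, and the median gap between them was 898 bp. Score and width were not independent in this list, as the narrowest peaks of chromosome 6, of 105 and 117 bp, were at the cap. A choice by low scores can thus act on width, and the widths of both tracts are given as a description. The peak before the tract, 3337 bp away, had a −log10 q of 7.47, and the next peak after it was 212286 bp away.

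The second tract also had 36 peaks, spread from 10094936 to 11275378, with scores from 316 to 806 (median 469.5) and a −log10 q from 1.18 to 2.36 (median 1.64). They fell in clumps, of which the larger ones had 14 peaks in 54.0 kb, from 10094936 to 10148904, and 10 peaks in 39.0 kb, from 10404446 to 10443476. The median width of the 36 peaks was 637 bp, below the 675 bp of all interior peaks outside the island. The median gap between them was 3135 bp. The bin from 10000001 to 11000000 had 28 peaks and none at the cap. The tracts held 8 and 4 of the 60 peaks of chromosome 6 with a q above 0.05. Tracts of 20 or more peaks in a row below the cap were found 5 times on the 12 chromosomes. Of these, 2 were here, 2 on chromosome 4 and 1 on chromosome 10, which had the longest, with 39 peaks. With 10 or more peaks in a row there were 20 tracts. Chromosome 6 had 2 of them, against 4 each on chromosomes 2 and 10 and 3 on chromosome 4. The longest tract within the island had 9 peaks, from 21802936 to 21830129.

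**Figure D4:**
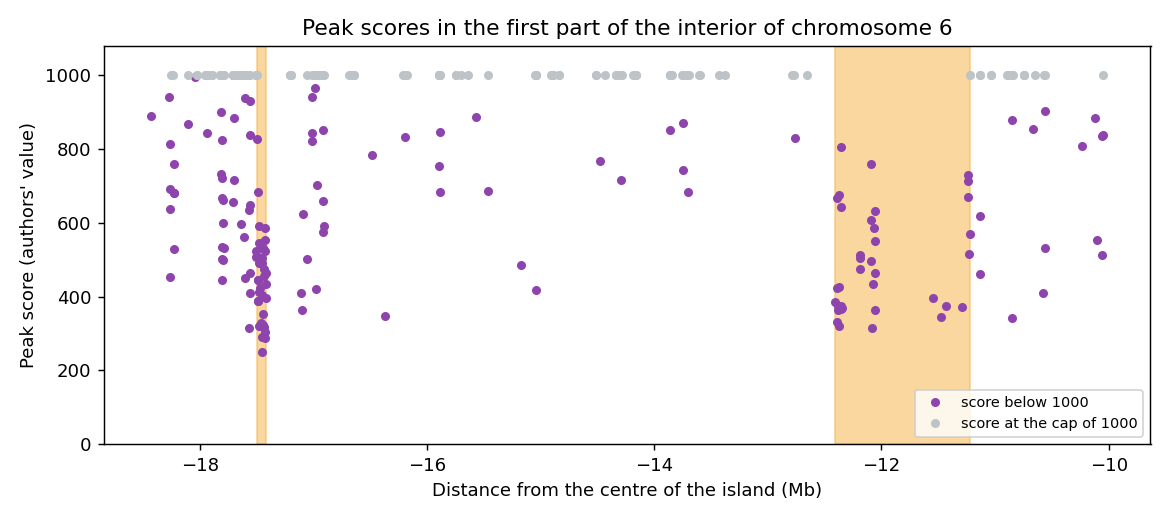
Score of each peak (authors' value, cap of 1000) in the first part of the interior, by distance from the centre of the island in Mb. The shaded spans are the tracts in which 36 peaks in a row scored below the cap, the left one 77.1 kb long and the right one 1180 kb.

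The tracts held 72 of the 517 peaks of the interior outside the island. The other 445 peaks had a median −log10 q of 3.01, 57.5% at the cap and a median width of 648 bp. The tracts were picked for their low scores and no island peaks were left out, so the higher values without them follow from that choice and support no likeness to the island. What underlies the tracts was not tested.

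Set beside the other chromosomes, chromosome 6 had the smallest span, 47.2 Mb against 53.4 to 90.8 Mb, and the interior took the smallest share of it, 52.9% against 54.3 to 77.2%. The interior had 35.1 peaks per Mb, above the 24.8 to 34.6 of the other 11, although it held fewer peaks in all, 877 against 1004 to 1699. That rank turned over without the island, in a comparison added after the values were seen. With the fullest 3 Mb window of each interior left out, by the search described below, chromosome 6 had 23.5 peaks per Mb. This was lower than on 10 of the other 11 (23.1 to 32.2), with chromosome 12 nearly equal at 23.51. The island was chosen for its density, so a fall without it follows from that choice. Its arms were in the middle of the range, with 261.4 peaks per Mb against a median of 259.2 (237.7 to 291.0). Interior peaks of chromosome 6 had a median −log10 q of 2.89, lower than on 10 of the other 11 chromosomes (2.87 to 3.44), while those of its arms had 3.64, lower than on 4 of the 11 (3.38 to 3.74). These are ranks among units of 1 list, with no test. Chromosome 2 was unlike the others, as the rule left it no first arm and its interior ran from 1 to 29000000. It gave the 54.3% of span, the 34.6 peaks per Mb and the median −log10 q of 2.87 above.

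The island was the densest of the interior windows searched, by a search applied alike to every chromosome. Windows of 3 Mb at least 5 Mb from the edge of the interior were searched in steps of 1 Mb, and the fullest of each chromosome was taken. Interior sequence nearer to an edge was not searched. The island lay at that limit, as did the windows taken on chromosomes 2, 8 and 9. The window found on chromosome 6 was that from 21000001 to 24000000, with its 360 peaks, and the fullest on the other 11 chromosomes held from 100 to 262, with a median of 153. Its density was 5.11 times that of the rest of its interior, against 1.23 to 3.06 times elsewhere. The nearest was chromosome 2, whose window from 21000001 to 24000000 held 262 peaks at 3.06 times the rest of its interior. That interior starts at the end of the chromosome, with no first arm. Peaks of the chromosome 6 window had a median −log10 q of 3.30, exceeded in 4 of the other 11 windows (2.59 to 4.09), and a median width of 691.5 bp, exceeded in 7 (653 to 844 bp). The search uses the counts that chose the island, so the rank in density is a description. Width and −log10 q were not used to choose it.

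**Figure D5:**
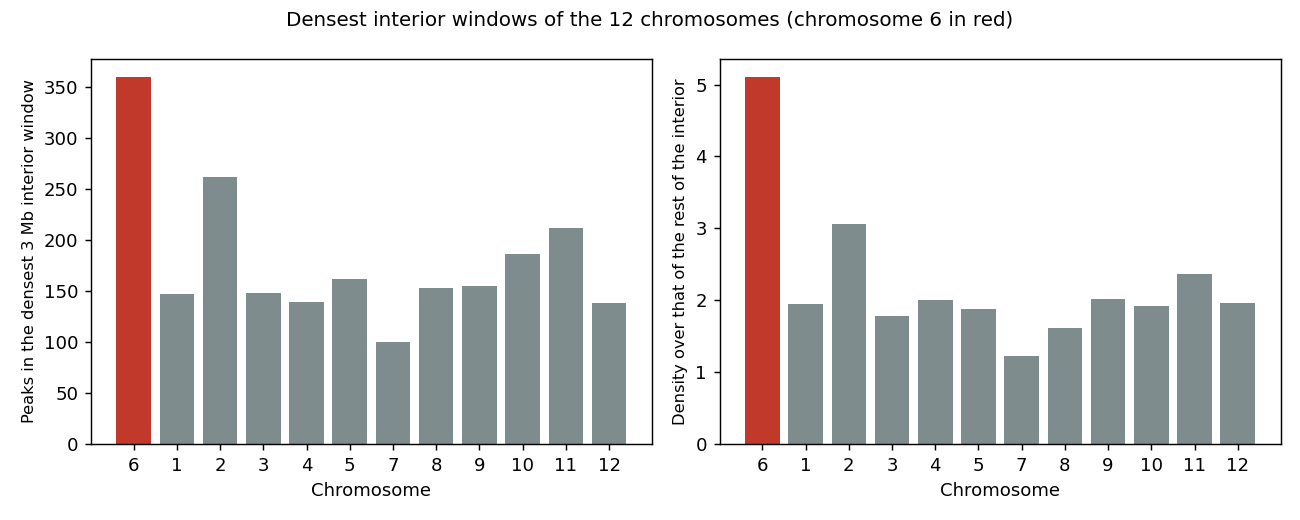
Peaks in the fullest 3 Mb window at least 5 Mb inside the interior of each chromosome (left) and the density of that window over the density of the rest of that interior (right), with chromosome 6 first and in red. Chromosome 6 stands at 360 peaks and 5.11 times, and the other 11 chromosomes reach at most 262 peaks and 3.06 times.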

How the data were processed

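Nuclei (100000 per reaction) were tagmented for 30 min at 37 °C and sequenced as paired reads, per the labels' protocols. Genrich appears in the list's own name, and as version 0.6 in the submitters' processing notes, which also list BWA, Trimmomatic, SAMtools, Picard and bedtools. The treatment of duplicates, of transposase offsets and of reads with several positions is not given in the sources used here. The authors deposited 1 peak list for the 6 replicates, in which each peak has a score (whole numbers up to 1000) and a −log10 q value inside its name. The list's name gives 0.5 for q and 30 bp for the gap.

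From it, positions (1-based, SL4.0), midpoints, widths, gaps and medians were computed. The interior is the stretch of 1 Mb bins whose summed deficit of peaks, relative to the average bin of the 12 chromosomes, is greatest. On chromosome 6 it spans 4000001 to 29000000. The span ends at the last peak, 47249169. The search for the interior, the median widths and the peak densities were checked on simulated data, and the other measures were not. Peaks named are the 3 strongest and 3 widest of each division, the edge peaks of the island, runs over 25 kb and the longest gaps. Members, divisions and lists were chosen with earlier results of these data known. Alternatives were limits on q, merging of peaks within 100 bp, assignment by peak start, other flanks, a neighbour distance of 5 kb and bins of 500 kb. Planned naming of nearest genes was not run, as no SL4.0 annotation was used. Values were computed with pandas 2.3.3, numpy 2.4.6 and scipy 1.17.1 under Python 3.11.15 and drawn with matplotlib 3.10.9.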

Additional observations from a re-analysis of the deposited data

How the results depend on the processing

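With a q at or below 0.01, island density fell to 94.7 peaks per Mb, and its median width was 824 bp, its median −log10 q 4.30, its share at the cap 73.9%, its median spacing 3145 bp and its share with a neighbour within 2 kb 57.7%. With peaks within 100 bp merged, density was 92.7 per Mb, median width 850 bp, median spacing 3521 bp and the share with a neighbour 49.3%. Both follow from fewer or joined peaks. A neighbour distance of 5 kb gave a share of 92.2%. The density of the island over its flanks lay between 12.1 and 15.4 under the q limits, merging, assignment by start and flanks of 2 Mb, and was 5.11 with the sparse interior in place of the flanks. The island minus the arms was 7.5 bp in median width, and 58 bp with a q at or below 0.01, 35 bp after merging and -19.5 bp against bins of equal density on other chromosomes, so no direction is given for it. In median −log10 q it was -0.35, and between -0.36 and -0.10 under the q limits, merging and assignment by start. It was -0.05 against the bins of equal density and 0.70 with the sparse interior in place of the arms. For these differences the 4950 peaks of the bins of equal density were pooled, with medians of 711 bp and 3.34. The Results above give medians over bins instead, 709.5 bp and 3.45. Bins of 500 kb gave the same interior. Of 146 alternative values over all divisions, 91 were classed as unchanged and 55 as moved, by whether they lay within an interval of the reported value. For medians that interval came from the ranks of the peaks, taken as independent, and it is no replicate error. The count of tracts had no interval and was classed as unchanged because its value was the same. Leaving out each replicate was not possible with a pooled list. No paired analysis was possible because the samples form 1 group and 1 list. Depth per sample is unknown, so stretches without a peak are stretches without a call. Gaps of the assembly within them could not be checked.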
